A study of Mus musculus with 4 samples.

Results

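Decorin-high nuclei were tumour nuclei selected on the summed RNA of 6 matrix genes, and there were 569 of them among 3794 gated tumour nuclei and 5859 nuclei in all. A nucleus was kept if it had at least 500 unique molecular identifiers (UMIs, counted RNA molecules), at least 300 genes, and no more than 20% of UMIs from mitochondrial genes. It was gated as a tumour nucleus if Hmga2, a chromatin protein gene read strongly in this tumour line, reached 3 per 10000 UMIs and Ptprc, the pan-leukocyte phosphatase CD45, had at most 1 UMI. The score was the summed UMIs of Dcn, Aspn, Ogn, Omd, Prelp and Mgp per 10000 UMIs, and the top 15% over both libraries were taken, which gave 110 Sun1_KO and 459 Sun1_WT nuclei. The remaining 1251 Sun1_KO and 1974 Sun1_WT gated nuclei served for comparison. The 5 lowest decorin-high nuclei scored 22.91, 22.92, 23.01, 23.04 and 23.14, and the 5 highest of the other nuclei scored 22.91, 22.82, 22.69, 22.66 and 22.65, so the boundary cuts a continuous range.

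The nuclei came from subcutaneous tumours grown in BALB/c mice from CT26 cells, a mouse line of colon cancer, injected into the flank and collected at day 14. The Sun1_KO tumour was labelled as a knockout of Sun1, which encodes an inner nuclear membrane protein of the complex that couples the nucleus to the cytoskeleton, and the Sun1_WT tumour as wild type. Each genotype had 1 RNA library and 1 open-chromatin library read from the same nuclei, with 35471291 UMIs and 183750142 accessibility counts in Sun1_KO and 53707675 UMIs and 227006096 accessibility counts in Sun1_WT. How the knockout was made, the number of cell clones, and the number of animals behind a library were not given in the sources used here. With 1 library per genotype nothing between genotypes was tested, a difference between the libraries cannot be told apart from one between genotypes, and every interval below is a 95% interval for counting error only.

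Decorin, asporin, osteoglycin, osteomodulin and Prelp belong to the small leucine-rich proteoglycans, secreted proteins whose curved repeat domain binds collagen and sets how fibrils assemble. Decorin and asporin also bind the growth factor TGF-beta, and matrix Gla protein, the product of Mgp, is an inhibitor of mineralisation. In tumours this set of genes is best known from stromal fibroblasts, which lay down most of the fibrous matrix. Aspn, Omd, Ogn and Ecm2 lie side by side on mouse chromosome 13, while Dcn lies beside Lum, Kera and Epyc on chromosome 10.

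Whether these nuclei were tumour cells or host fibroblasts was read from values the score did not use. Xist, the RNA that coats an inactive X chromosome, had a UMI in 6 of 110 Sun1_KO decorin-high nuclei (5.45%, exact binomial interval 2.03 to 11.5%) and in 13 of 459 Sun1_WT ones (2.83%, 1.52 to 4.79%). The other gated nuclei had it in 50 of 1251 and 40 of 1974 (2.03%), whereas nuclei with at least 3 Ptprc UMIs, taken as host leukocytes, had it in 90.6% and 92.4%. A chromosome X stretch from 5 to 45 Mb gave a further mark, since it held a median of 2153 accessibility CPM (counts per 1000000 accessibility counts) in Sun1_KO decorin-high nuclei, near the 2169 of the other Sun1_KO gated nuclei and below the 3732 of Sun1_KO leukocytes. On both marks most decorin-high nuclei therefore sat with the tumour nuclei of their library. That X-stretch mark does not separate tumour from host in Sun1_WT, where the medians were 4363, 4212 and 3951.

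Some of the few nuclei with Xist stood apart, and results that rest on them are given with and without them. The fibroblast list holds 1 score gene, Dcn, whose level the choice of nuclei raises, so its sum is given without Dcn. The 6 Sun1_KO nuclei had summed fibroblast markers of 28363 CPM (UMIs per 1000000 UMIs, without mitochondrial genes), against 3832 in the other 104 decorin-high nuclei and 2098 in the remaining gated nuclei without Xist. In Sun1_WT, the 13 nuclei had 12421, against 3765 in the other 446 and 2026 in the remaining gated nuclei. Ebf1, a transcription factor of mesenchymal and B-lineage cells, had a UMI in 4 of the 6 Sun1_KO and 8 of the 13 Sun1_WT nuclei with Xist, at 1647 and 677 CPM over all nuclei with Xist, against 0 and 0.402 in decorin-high nuclei without it. Collagen I chain gene Col1a1 had 7185 and 2123 in nuclei with Xist, against 111 and 103 without. The 4 Sun1_KO decorin-high nuclei at or over 3000 CPM in the X stretch held all 135 Ebf1 UMIs and 587 of the 589 Col1a1 UMIs of the 6, so the sum over nuclei with Xist does not describe each of them. Markers of macrophages summed to 195 and 182 CPM in all decorin-high nuclei, against 3485 and 6727 in leukocytes, and those of pericytes and smooth muscle to 2.65 and 3.11, with 6 and 4 of 9 markers at 0.

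Decorin-high nuclei were shallower than the other gated nuclei. Their median depth was 10141 UMIs in Sun1_KO and 10682 in Sun1_WT, against 16537 and 18445.5 in the other gated nuclei. Hmga2 was lower as well, at a median of 20.1 and 10.3 per 10000 UMIs, against 38.4 and 26.7. Summed tumour markers, a list that holds Hmga2, had 2835 and 1937 CPM, against 4942 and 3419. This sum is mostly Hmga2, a gene of the gate. In Sun1_KO nuclei without Xist, Hmga2 had 2663 of the 2926 CPM in decorin-high and 4614 of 4975 in other nuclei. Of the 7 markers measured, 3 were lower and 0 higher in both libraries, beside 5.6% and 3.47% of all genes. How many nuclei with a high score fell under the Hmga2 minimum of the gate was not counted. Of the barcodes, 12 occurred in both libraries, of which 0 Sun1_KO and 2 Sun1_WT ones were decorin-high, and no doublet caller was run.

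The decorin-high share of gated nuclei was 8.08% in Sun1_KO (6.69 to 9.66%) and 18.9% in Sun1_WT (17.3 to 20.5%), a ratio of 0.428. The X stretch splits this difference. Among nuclei whose X-stretch share was under 3000 CPM, 97 of 1240 Sun1_KO nuclei were decorin-high (7.82%, 6.39 to 9.46%), against 45 of 497 Sun1_WT nuclei (9.05%, 6.68 to 11.9%). Sun1_WT nuclei at or over that boundary had a share of 21.0% (379 of 1806), and only 45 gated Sun1_KO nuclei lay there, of which 4 were decorin-high. Within the state that both libraries held in number, the shares lay within each other's intervals. The ratio among low-share nuclei without Xist was 0.877. With the top 10% in place of 15% over all nuclei it was 0.277. Genotype and X-stretch state cannot be told apart in the larger share of Sun1_WT.

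**Figure D1:**
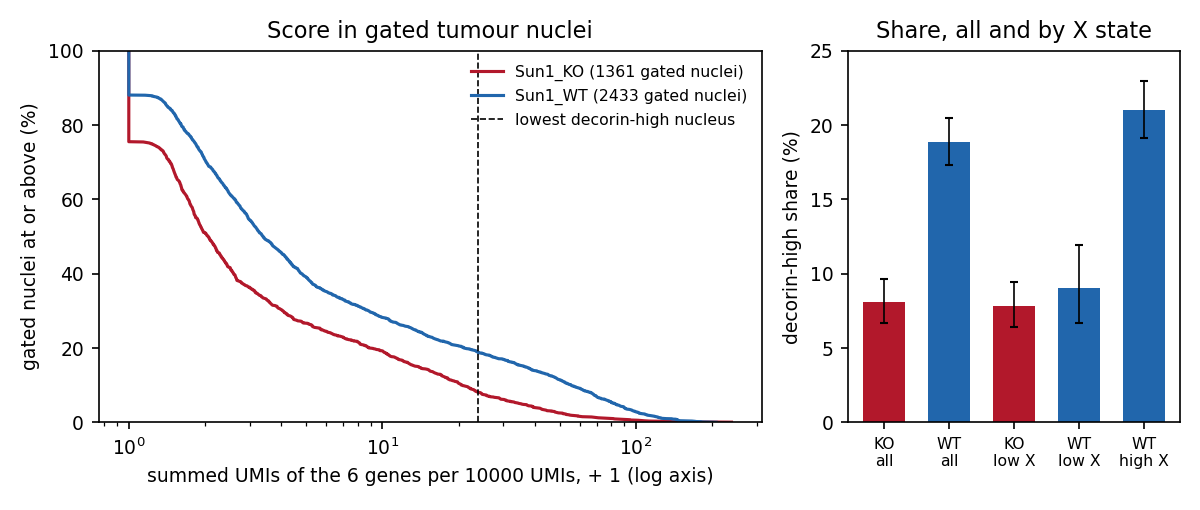
Left, the percentage of gated nuclei (y) whose score, plus 1 and on a log axis (x), is at least the value shown, for Sun1_KO (red) and Sun1_WT (blue), with the lowest decorin-high score dashed. Right, the decorin-high share in percent, over all gated nuclei and for nuclei under (low X) or at and over (high X) 3000 X-stretch CPM, with exact binomial 95% intervals as bars: the low X shares, 7.82% in Sun1_KO and 9.05% in Sun1_WT, are close, and the high X share of Sun1_WT is 21.0%.

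The 6 score genes chose these nuclei, so their levels are a description. Dcn had 1050 CPM in Sun1_KO and 2227 in Sun1_WT decorin-high nuclei, and 105 and 178 in the other gated nuclei. Aspn had 921 and 1790, against 37.2 and 32.7. Mgp had 2847 and 1856, against 85.3 and 75.1. In leukocytes, where free RNA would leave its trace, Dcn had 83.5 and 231, and Mgp 96.0 and 95.7. The other gated nuclei thus held these genes at about the level of leukocytes. Of the leukocytes, 168 of 625 (26.9%) in Sun1_KO and 128 of 593 (21.6%) in Sun1_WT also reached the Hmga2 minimum of the gate. The leukocytes are thus no clean measure of free RNA. After thinning every nucleus to 3000 UMIs, a Dcn UMI was present in 74.0% of 104 Sun1_KO and 93.1% of 448 Sun1_WT decorin-high nuclei, against 10.4% and 23.4% of leukocytes, and the unthinned shares were 91.8% and 98.0%, against 21.3% and 30.4%.

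Ogn had 538 CPM in Sun1_KO and 381 in Sun1_WT decorin-high nuclei, against 35.7 and 18.1 in the other gated nuclei. Omd had 84.9 and 259, against 12.1 and 18.3. Prelp had 38.0 and 144, against 2.31 and 12.1. Over all decorin-high nuclei Mgp was the most counted of the 6 genes in 54.5% of Sun1_KO and 27.7% of Sun1_WT decorin-high nuclei, while Dcn led in 21.8% and 42.5%. At least 3 of the 6 genes were detected in 91.8% and 96.7% of decorin-high nuclei, which counts presence and not the part of the score a gene gives. Mgp held 52.0% of the score UMIs in Sun1_KO and 27.9% in Sun1_WT decorin-high nuclei. Of the 3220 Sun1_KO Mgp UMIs, 495 lay in 1 nucleus.

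**Figure D2:**
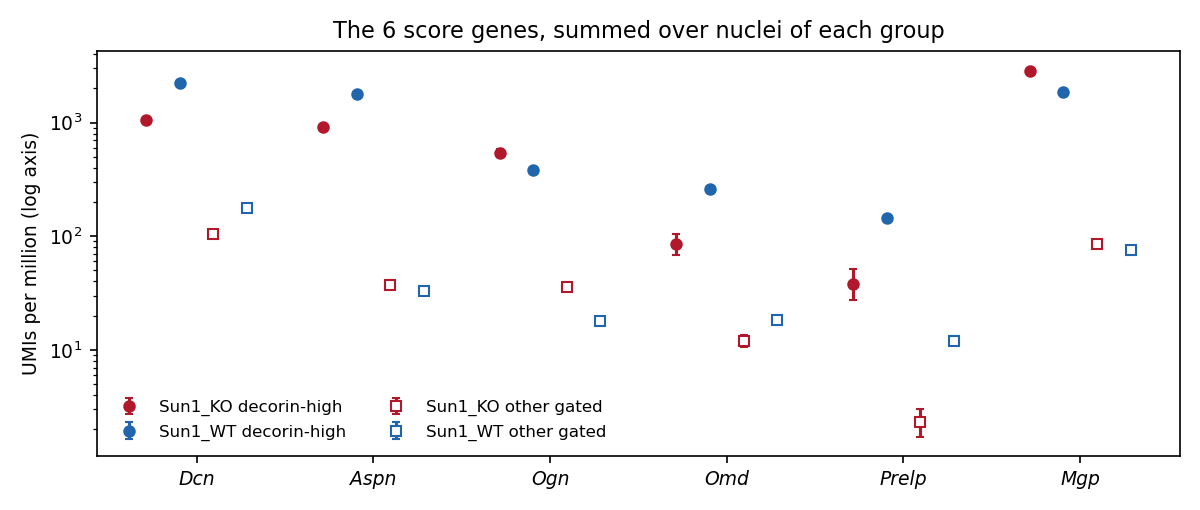
CPM (y, log axis) of the 6 score genes (x), summed over decorin-high nuclei (filled) and other gated nuclei (open) of Sun1_KO (red) and Sun1_WT (blue), with exact Poisson 95% intervals, mostly smaller than the symbols. Dcn, Aspn, Omd and Prelp lie lower in Sun1_KO decorin-high nuclei, and Ogn and Mgp higher.

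Between genotypes the score genes did not move together. In decorin-high nuclei the log2 ratio of Sun1_KO to Sun1_WT was -1.08 for Dcn (-1.17 to -0.999), -0.96 for Aspn, -1.60 for Omd and -1.90 for Prelp, and 0.50 for Ogn and 0.62 for Mgp. In nuclei with a low X-stretch share and no Xist, Dcn stood at -0.71, Aspn at -0.41 and Omd at -0.35 (-0.84 to 0.16). Ogn was at 1.27 there, and Mgp at -0.10. Prelp had 38.8 and 36.6 CPM in these nuclei, a log2 ratio of 0.06 (-0.78 to 1.01). The lower Prelp of Sun1_KO decorin-high nuclei was thus not seen among nuclei of like X-stretch state, from 36 Sun1_KO and 17 Sun1_WT UMIs.

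Compared with the other gated nuclei, decorin-high nuclei carried more RNA of many matrix genes and less of the cell cycle lists. Among genes with at least 100 UMIs over both groups in each library, a gene was counted when it was 2-fold or more higher, or lower, in both libraries, which held for 383 of 11043 genes (3.47%) upwards and 618 (5.6%) downwards. Without the nuclei with Xist these counts were 341 and 622 of 10919 (3.12% and 5.7%). In low X-stretch nuclei without Xist they were 210 and 455 of 8967 (2.34% and 5.07%). The score genes share nuclei and depth with every gene named here, so these ratios are descriptions with counting intervals.

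Among the collagens, 4 of 7 measured fibrillar chains were higher in both libraries, and 2 of 6 without the nuclei with Xist. Col3a1, a chain of collagen III, had 1612 CPM in Sun1_KO decorin-high nuclei and 423 in the other Sun1_KO nuclei, and 1238 and 318 in Sun1_WT. It kept log2 ratios of 1.56 and 1.84 without the nuclei with Xist. Col1a1 had log2 ratios of 2.18 and 0.60, but 0.22 and -0.11 without those nuclei. Of the non-fibrillar chains, 6 of 12 were higher in both libraries, and 4 of 11 without the nuclei with Xist.

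Col10a1 encodes the collagen of hypertrophic cartilage. It had 92.8 CPM in Sun1_KO decorin-high nuclei, against 3.95 in the other nuclei, and 116 against 2.09 in Sun1_WT. Its log2 ratios were 4.55 (4.13 to 4.99) and 5.78 (5.44 to 6.15), and 4.79 and 5.79 without the nuclei with Xist. Col4a5, a basement membrane chain, had 600 against 207 CPM in Sun1_KO and 302 against 144 in Sun1_WT. Col8a1, a short-chain collagen, lay below, at log2 ratios of -0.55 and -0.35.

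Proteases of the matrix accompanied the collagens. In the list of matrix metalloproteases and their inhibitors 6 of 12 were higher in both libraries, and without the nuclei with Xist 4 of 10, while 2 were then lower. Mmp3, or stromelysin-1, had 308 CPM against 23.8 in Sun1_KO and 421 against 17.6 in Sun1_WT, with a UMI in 68 of the 110 and 314 of the 459 decorin-high nuclei. Mmp2, a gelatinase, had 71.6 against 5.598 and 24.3 against 0.761. Its log2 ratios of 3.68 and 4.98 came, without the nuclei with Xist, to 3.21 and 3.003, and in low X-stretch nuclei 1 Sun1_WT UMI was left in decorin-high nuclei. Timp3, a protease inhibitor bound to the matrix, went with the nuclei with Xist: its log2 ratios were 2.83 and 1.54 with them, and -0.90 and -0.42 without.

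Glycoproteins and large proteoglycans of the matrix were higher in 10 of 21 cases, and in 5 of 18 without the nuclei with Xist. Thbs1, thrombospondin-1, which can activate latent TGF-beta, had 110 CPM against 27.7 in Sun1_KO and 214 against 15.3 in Sun1_WT. Spon2, a secreted adhesion protein, had 61.9 against 11.6 and 95.2 against 7.94. Lama3, an epithelial laminin chain, lay below in both, at -1.54 and -1.39.

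Among the other small leucine-rich proteoglycans only 4 of 13 had enough UMIs to compare, and 2 of those were higher in both libraries. Once the nuclei with Xist were left out, 1 of 3 was higher, and the medians of 1.65 and 1.77 came to -0.32 and -0.01. Bgn, the biglycan gene, had 288 CPM against 24.5 in Sun1_KO and 96.9 against 8.07 in Sun1_WT, but 145 of 326 and 100 of 499 UMIs came from 1 nucleus each. Its log2 ratios of 3.56 and 3.58 came, without the nuclei with Xist, to 1.88 and 2.74. Lum, lumican, had only 43 Sun1_KO and 207 Sun1_WT UMIs in decorin-high nuclei, at 38.0 against 3.43 and 40.2 against 0.870 CPM. Ecm2, the neighbour of Aspn and itself a matrix protein gene, had 4 Sun1_KO and 51 Sun1_WT UMIs and log2 ratios of -0.77 (-2.83 to 0.45) and -0.04 (-0.51 to 0.37).

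The TGF-beta response list had 6 of 18 genes higher in both libraries, and 6 of 17 without the nuclei with Xist. Pmepa1, a TGF-beta target that restrains the pathway, had 402 CPM against 73.7 in Sun1_KO and 279 against 39.3 in Sun1_WT. Ccn2, connective tissue growth factor, had 50.4 against 10.9 and 28.2 against 3.21. Of the mesenchymal transcription factors 0 of 14 differed 2-fold in either direction in both libraries. Prrx1, which marks connective tissue progenitors, came nearest, with log2 ratios of 1.00 and 0.94, and it was well read in the other nuclei too, at 547 and 575 CPM.

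Other leading genes were of several kinds. Cp, the copper-binding ferroxidase ceruloplasmin, had 958 CPM against 103 in Sun1_KO and 785 against 64.3 in Sun1_WT, and it was also the gene most like the score across the 3794 gated nuclei (Spearman correlation 0.64, a description over nuclei that share libraries and depth). The next by this measure were C1s1, Slit3, Fn1, Mitf and Thbs2, from 0.61 to 0.54. Dio2, which activates thyroid hormone, had 592 against 61.2 and 178 against 8.65. Agt, angiotensinogen, under the UMI minimum of this comparison in Sun1_KO, had 28.3 against 1.98 and 139 against 3.59. Kcnj2, a potassium channel gene, had 83.1 against 5.41 and 25.2 against 2.12.

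Rarres2, Mfap5 and Cxcl14 also stood among the 10 leading genes, and their ratios fell without the nuclei with Xist. Rarres2, which encodes the chemoattractant chemerin, had 126 of its 245 Sun1_KO UMIs and 162 of its 865 Sun1_WT UMIs in 1 nucleus each. Its log2 ratios of 4.03 and 4.38 came to 1.56 and 2.66 without the nuclei with Xist, those of Mfap5, a microfibril gene, of 3.66 and 3.72 came to 2.57 and 2.23, and Cxcl14, a chemokine with log2 ratios of 3.46 and 4.31, had 3 and 8 UMIs left in decorin-high nuclei. Without only the nucleus with most UMIs of the gene in each library, the ratios were 3.01 and 4.09 for Rarres2, 3.15 and 3.27 for Mfap5, and 2.70 and 2.40 for Cxcl14.

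Among integrins, 4 of 16 were higher and 2 lower in both libraries, beside 3.47% and 5.6% of all genes. Without the nuclei with Xist, 3 of 15 were higher and 2 lower. The medians in Sun1_KO and Sun1_WT went from 0.21 and 0.00 to -0.22 and -0.16. Itgb5, a vitronectin receptor chain that can release TGF-beta from its latent form, had 627 CPM against 149 in Sun1_KO and 374 against 105 in Sun1_WT. Itgb8, which does the same, had 77.8 against 10.4 and 34.4 against 6.14. Itga6, a laminin receptor chain of epithelial cells, lay below, at 84.0 against 290 and 145 against 502.

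Over all decorin-high nuclei, genes of proliferation were lower almost throughout. In the S phase list 23 of 30 were lower in both libraries and 0 higher, and in the G2/M list 28 of 30 lower and 0 higher. The medians were -1.61 and -1.52 in Sun1_KO and -1.29 and -2.37 in Sun1_WT for S phase and G2/M, beside -0.04 and 0.00 over all genes. Without the nuclei with Xist, 22 of 30 and 27 of 30 were lower. In low X-stretch nuclei without Xist, only 10 of 29 S phase genes were lower in both libraries, and 23 of 30 of G2/M. The medians there were -1.71 and -1.76 in Sun1_KO and -0.80 and -1.49 in Sun1_WT. Uhrf1, a methylation maintenance factor of S phase, had 22.99 CPM against 92.0 in Sun1_KO and 21.7 against 82.8 in Sun1_WT. Anln, a cytokinesis protein, had 95.5 against 377 and 92.3 against 446. Plk1, the mitotic polo kinase, had 6.19 against 45.1 and 8.93 against 50.2. Among genes of cell-cycle exit, 2 of 11 were higher: Rb1, the retinoblastoma gene, at log2 ratios of 2.09 and 1.75, and the forkhead factor gene Foxo3 at 1.56 and 1.28. Cdkn1a, the p21 gene, lay at -0.91 and -0.90.

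Hbegf, Nrg1 and Esm1 were among the 10 genes most reduced by the bound of their interval. Hbegf, an EGF receptor ligand, had 15.9 CPM against 117 in Sun1_KO and 30.9 against 247 in Sun1_WT, log2 ratios of -2.83 (-3.63 to -2.21) and -2.997 (-3.24 to -2.77). Nrg1, a ligand of the related ERBB receptors, had 84.9 against 562 and 67.0 against 309. Esm1, a secreted proteoglycan of endothelial cells, had 39.8 against 227 and 56.3 against 373. Amigo2 and Unc13c were also among the 10 lowest, with Kif15, Zwilch, Plk1 and Foxm1 of the proliferation genes, at log2 ratios from -1.97 to -2.77 over both libraries. Ccdc114, of ciliary dynein docking, had 3 Sun1_KO UMIs, a ratio of 0.0756 (0.0156 to 0.222) to the other nuclei.

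In the nuclear envelope list, which holds the family of Sun1, 3 of 20 genes were lower in both libraries and 0 higher. Over all genes 5.6% were lower and 3.47% higher. Without the nuclei with Xist, 5 of the 20 were lower and 0 higher, beside 5.7% and 3.12% of all genes. Lmnb1, lamin B1, had 80.5 CPM against 270 in Sun1_KO and 57.7 against 231 in Sun1_WT. In low X-stretch nuclei without Xist, the Sun1_WT log2 ratios of decorin-high to other nuclei were -1.06 for Lmnb1 (-2.00 over all), -1.37 for Plk1 (-2.48) and -3.96 for Esm1 (-2.72). Sun1 itself had 59.2 CPM in Sun1_KO and 84.3 in Sun1_WT decorin-high nuclei, a log2 ratio of -0.50 (-0.90 to -0.13), against 64.6 and 108 in the other gated nuclei. Sun1 RNA was still read in the library labelled Sun1_KO. The place of a lesion in the gene is not known here, so this level does not check the label.

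**Figure D3:**
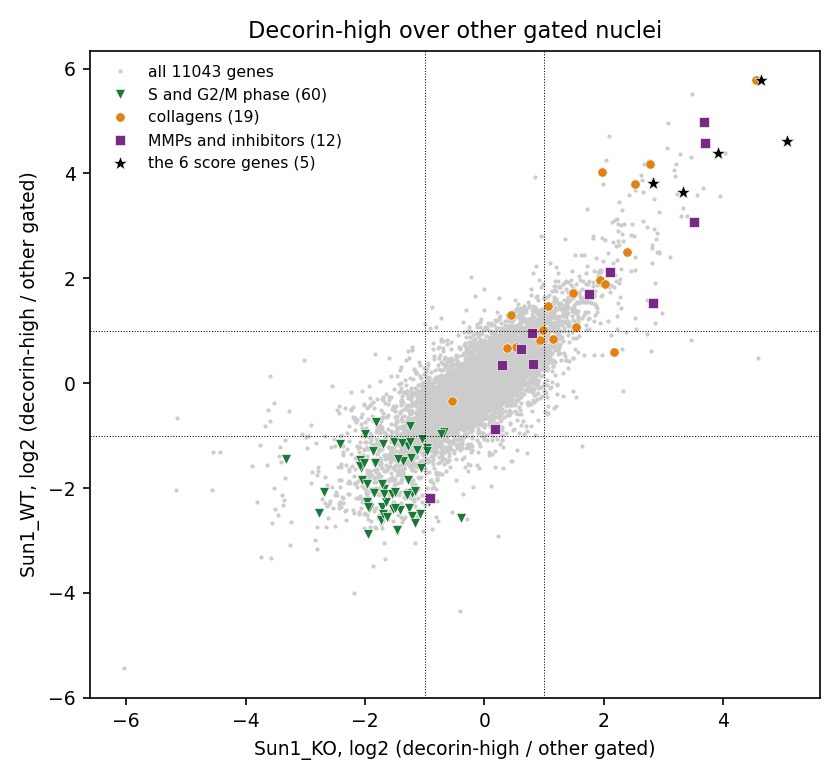
Log2 ratio of decorin-high to other gated nuclei for each gene, Sun1_KO on x and Sun1_WT on y, over 11043 genes with at least 100 UMIs in each library, with dotted lines at 2-fold. S and G2/M phase genes (green) lie at lower left and most collagens (orange) and metalloproteases (purple) to the right of 0, while Prelp, of the 6 score genes, lacked the UMIs to be drawn.

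Open chromatin was not used to choose the nuclei and gave an independent readout of the same barcodes. Peaks of the 2 libraries were merged where they overlapped, and 4548 of 98800 shared regions (4.6%) were at least 2-fold more open in decorin-high nuclei of both libraries, while 9015 (9.12%) were at least 2-fold less open. Accessibility counts were even numbers in 74.98% and 75.5% of cases, so they are not independent molecules and the intervals are too narrow.

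The regions at the starts of score genes were more open. The sequences before these starts are shown because the accessibility change can be read against them, with any match to 4 motifs in capitals. The motifs, searched on both strands, were the TATA box TATAAA and the TEAD motif GGAATG. The others were the RUNX motif TGTGGT and the AP-1 motif TGANTCA. They are the 250 bases before the start on the strand of the gene, 5′ to 3′, from RefSeq (GRCm38.p6, the mm10 build). Of the 6 genes, 4 were in the table used, which did not hold Dcn and Mgp.
Aspn, chr13:49544193-49544442, plus strand: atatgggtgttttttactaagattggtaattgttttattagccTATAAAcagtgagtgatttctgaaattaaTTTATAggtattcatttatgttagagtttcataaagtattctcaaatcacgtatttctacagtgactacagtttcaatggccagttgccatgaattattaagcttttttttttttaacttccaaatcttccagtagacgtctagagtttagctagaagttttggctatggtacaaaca
Ogn, chr13:49607765-49608014, plus strand: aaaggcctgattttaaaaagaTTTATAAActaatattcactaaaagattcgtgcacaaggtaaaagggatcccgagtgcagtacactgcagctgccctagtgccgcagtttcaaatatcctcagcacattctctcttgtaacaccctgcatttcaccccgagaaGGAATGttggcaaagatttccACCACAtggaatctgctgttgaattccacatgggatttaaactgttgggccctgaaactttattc
Omd, chr13:49582212-49582461, plus strand: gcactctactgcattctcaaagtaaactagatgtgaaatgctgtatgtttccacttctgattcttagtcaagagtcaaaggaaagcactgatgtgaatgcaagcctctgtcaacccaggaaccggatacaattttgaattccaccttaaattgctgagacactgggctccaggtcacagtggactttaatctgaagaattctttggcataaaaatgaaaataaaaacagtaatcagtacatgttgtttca
Prelp, chr1:133921402-133921651, minus strand: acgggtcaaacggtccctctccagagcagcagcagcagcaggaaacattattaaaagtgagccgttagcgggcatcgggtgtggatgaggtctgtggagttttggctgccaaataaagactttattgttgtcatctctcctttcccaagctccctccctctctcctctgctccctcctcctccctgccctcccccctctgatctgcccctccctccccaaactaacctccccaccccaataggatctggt
In the Aspn window TATAAA occurred on both strands, from 207 to 202 and from 178 to 173 bases before the start. The Ogn window held overlapping TATAAA matches on both strands between 229 and 222 bases, a GGAATG from 86 to 81 and a TGTGGT on the other strand from 65 to 60. No match to these letters lay in the Omd and Prelp windows. Of 32851 promoter windows of this length, 12.4% held the TATA box, 12.6% the TEAD motif, 14.0% the RUNX motif and 6.75% the AP-1 motif.

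The region over the Aspn start (chr13:49543959-49544811) had 20.1 accessibility CPM in decorin-high and 3.01 in other nuclei of Sun1_KO, and 20.1 and 2.28 in Sun1_WT. That is a log2 ratio of 2.74 (2.45 to 3.02) and 3.13 (2.94 to 3.33), with leukocytes at 3.10 and 1.91 CPM. The level of this start in decorin-high nuclei was thus alike in both libraries, with a log2 ratio of 0.01 (-0.27 to 0.27), while Aspn RNA was at 921 and 1790 CPM.

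The start of Ogn (chr13:49607484-49608387) had 16.6 against 5.97 CPM in Sun1_KO and 14.0 against 4.10 in Sun1_WT, log2 ratios of 1.48 and 1.77. Prelp (chr1:133921082-133921961) had 10.3 against 2.93 and 19.5 against 7.41, at 1.82 and 1.40. Omd differed least: its start region (chr13:49582105-49582739) was already open in the other gated nuclei, with 20.4 against 14.5 and 25.4 against 17.7, at 0.50 and 0.52. Over the whole Mgp locus the log2 ratios were 1.68 and 1.58, and over the Dcn locus 0.77 and 0.79.

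Opening was uneven along the chromosome 13 cluster. Its 29 regions were taken from 40 kb before Ecm2 to 40 kb after Ogn. Of these, 11 were at least 2-fold more open in decorin-high nuclei of both libraries and 1 was less open. Over all shared regions the shares were 4.6% and 9.12%. Among the 11 was the region inside Ecm2 (chr13:49506887-49507805), before the Aspn start, with 8.30 against 0.925 CPM in Sun1_KO and 10.2 against 0.731 in Sun1_WT. Its log2 ratios were 3.17 (2.68 to 3.63) and 3.80 (3.49 to 4.13), above those of the Aspn start, beside the Ecm2 RNA values above. The region just past the Aspn start (chr13:49545426-49546267) followed at 2.88 and 3.21, and beyond it none up to and over the Omd start was 2-fold more open in both libraries. On chromosome 10, 10 of 29 measured regions around Dcn, Lum, Kera and Epyc were more open in both libraries and 1 less open. The Lum region (chr10:97564759-97565747) had 6.33 against 1.15 and 5.98 against 0.731 CPM. A region in Epyc (chr10:97668311-97669179) had 7.03 against 0.681 and 9.82 against 0.687, with 5 and 3 Epyc UMIs in all decorin-high nuclei.

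**Figure D4:**
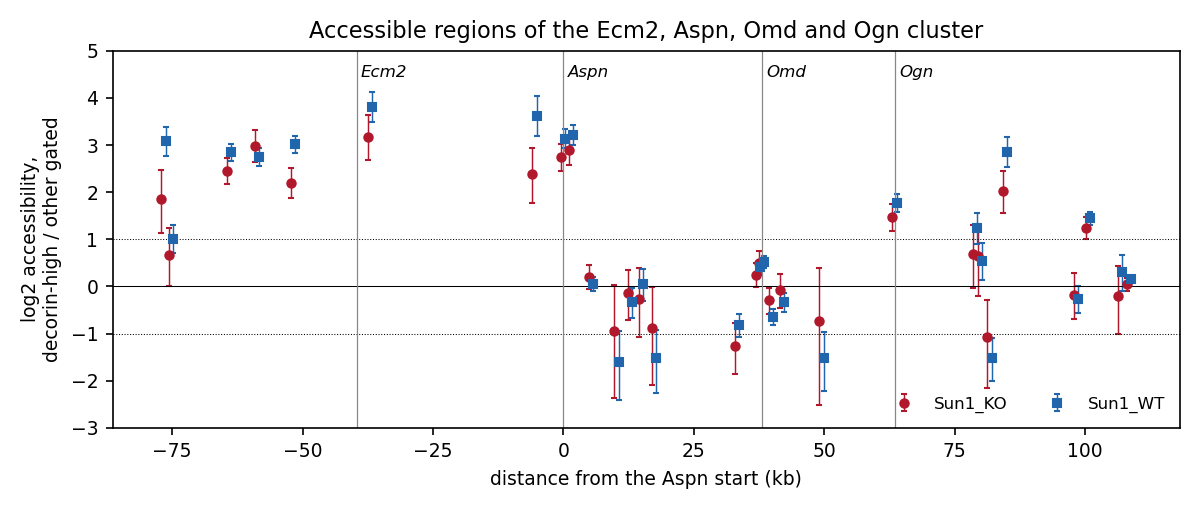
Log2 ratio of accessibility between decorin-high and other gated nuclei (y) for the 29 regions of the Ecm2, Aspn, Omd and Ogn cluster against the distance of their centre from the Aspn start in kb (x), Sun1_KO in red and Sun1_WT in blue, with 95% counting intervals as bars and gene starts as vertical lines. Most regions before and at the Aspn start lie well above 0 in both libraries, and those further on towards Omd lie near or below 0.

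Over all genes, a start region was more open in decorin-high nuclei of both libraries in 5511 of 7964 cases (69.2%). Genes with at least 2-fold higher RNA had it in 172 of 212 cases (81.1%), and those with at least 2-fold lower RNA in 173 of 433 (40.0%). The changes were small, with medians of 0.24 and 0.26 for the genes with higher RNA in Sun1_KO and Sun1_WT, and 0.01 and 0.02 for those with lower RNA. Over all genes compared the medians were 0.12 and 0.14, between those of the 2 sets. Agt stood well above these with 2.64 and 2.86 at its start. Kcnj2, with RNA log2 ratios of 3.94 and 3.57, had 0.03 and 0.28 at its start, and Plk1, whose RNA was much lower, -0.02 and -0.15.

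The region with the largest gain by the bound of its interval lay on chromosome 16 (chr16:86158941-86159911), with 12.7 against 0.774 CPM in Sun1_KO and 10.8 against 0.359 in Sun1_WT and no annotated gene over it. The next lay on chromosome 11, 60462 bases from the start of Hlf (chr11:90329981-90330930), with 19.3 against 1.33 and 17.3 against 0.933. Regions within Macc1 (chr12:119402559-119403428) and Gfra1 (chr19:58422604-58423549) followed, with log2 ratios of 3.98 and 3.93 and of 3.78 and 3.69. Among the 5 most reduced regions was a region within Plxna4 (chr6:32567799-32568668), with 0.422 against 12.8 and 1.92 against 14.8 CPM, the Sun1_KO value from 3 counts.

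Between the genotypes, 136 of 8223 genes (1.65%) passed 2-fold upwards in Sun1_KO decorin-high nuclei and 273 (3.32%) passed it downwards. TMM scaling, which shifts the median of all genes from 0.08 to -0.07, gave 81 and 428. Of the genes with higher RNA, 3 are given here with their levels in the other gated nuclei. Ikzf2, a lymphoid transcription factor gene also named Helios, had 84.0 CPM in Sun1_KO and 5.44 in Sun1_WT decorin-high nuclei, and 35.2 and 2.75 in the other nuclei. Ift81, of intraflagellar transport, had 336 and 62.3, and 287 and 37.7 in the other nuclei. Arhgap15, a Rac regulator read mainly in leukocytes, had 65.4 and 6.22, with 703 and 700 in leukocytes, and 37.2 and 5.41 in the other gated nuclei. In low X-stretch nuclei without Xist the log2 ratio was 2.70 for Ift81 (2.43 over all decorin-high nuclei). It was 4.80 for Ikzf2 (3.93) and 1.77 for Arhgap15 (3.38), the last with an interval of 0.87 to 2.95. Both genes lay under the UMI minimum in these nuclei. The Ikzf2 value there thus does not show a larger difference. Without the nuclei with Xist, over all X-stretch shares, Ikzf2 had 95 Sun1_KO and 26 Sun1_WT UMIs, a log2 ratio of 4.09 (3.48 to 4.80).

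Among the genes lower in Sun1_KO, some lie on chromosome X. Zdhhc15, a palmitoyltransferase gene on chromosome X, had 0 UMIs in Sun1_KO and 150 in Sun1_WT decorin-high nuclei. That is at least 11.0-fold lower with 3 counts as the Sun1_KO floor. In the other gated nuclei without Xist its log2 ratio was -5.15. Tmlhe, a carnitine synthesis gene on chromosome X, had 3.54 and 70.7 CPM, and 0.940 and 39.0 in the other nuclei. Decorin-high nuclei without Xist held 2 and 345 of its UMIs. The X stretch of 5 to 45 Mb was chosen after seeing these data, so its values are a description. In it 20 of 56 genes were at least 2-fold lower in Sun1_KO decorin-high nuclei, beside 273 of 8223 (3.32%) over all genes. So were 110 of its 278 accessible regions, beside 1810 of 57062 (3.17%) over all regions, of which 1123 (1.97%) were higher. The medians in the stretch were -0.79 for genes and -0.88 for regions. In the other gated nuclei they were -0.62 and -0.79. Lgals1, galectin-1, had 703 and 2104 CPM, and 1121 and 3195 in the other nuclei. Its log2 ratio of -1.58 was -1.63 in nuclei with a low X-stretch share and no Xist.

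Agt, higher in decorin-high than in other nuclei of both libraries, was lower in Sun1_KO. It had 28.3 CPM in Sun1_KO and 139 in Sun1_WT decorin-high nuclei, a log2 ratio of -2.27 (-2.85 to -1.78), and 1.98 and 3.59 in the other nuclei. In low X-stretch nuclei without Xist it was -0.88 (-1.74 to -0.02), so the size moved with that state. Eln, elastin, had 1 UMI in Sun1_KO and 109 in Sun1_WT decorin-high nuclei, at 0.884 and 21.2 CPM, a ratio of 0.0418 (0.00105 to 0.238). Only 1 and 3 Eln UMIs lay in low X-stretch nuclei without Xist, at 1.08 and 6.46 CPM, too few to compare. Asns, asparagine synthetase, had 6.19 and 42.1, and Scara5, a ferritin receptor, 15.03 and 74.8. Sele, E-selectin, had 2 UMIs in Sun1_KO and 108 in Sun1_WT decorin-high nuclei, a ratio of 0.0843 (0.0101 to 0.312). Akr1c18, a progesterone-metabolising enzyme, had 1 and 102 UMIs, of which 21 lay in 1 Sun1_WT nucleus. These differences were not particular to decorin-high nuclei where the other gated nuclei without Xist were compared. Their log2 ratio of Sun1_KO to Sun1_WT was -2.65 for Eln, -1.13 for Asns and -2.54 for Akr1c18. For Scara5 and Sele it is not given here. Dio2 went the other way, with 592 and 178 CPM (log2 ratio 1.73, 1.58 to 1.88), and 1.52 in the low X-stretch nuclei. Its log2 ratio in the other gated nuclei without Xist was 2.80.

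In the list of hypoxia and glycolysis, Sun1_KO decorin-high nuclei had 3 of 21 genes lower and 0 higher, at a median of -0.66, beside -0.58 in the other gated nuclei and 0.08 over all genes. Tpi1, triosephosphate isomerase, had 157 and 371 CPM, and Bnip3, a mitophagy gene induced by low oxygen, 49.5 and 118. In the G2/M list 4 of 21 genes were higher, at a median of 0.55, but in low X-stretch nuclei without Xist the median was -0.59 over 5 genes. Of 18 nuclear envelope genes 1 was higher and 0 lower, at a median of 0.03. Fibrillar collagens had 3 of 6 higher, but 0 of 4 without the nuclei with Xist.

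Several of the genes most raised in Sun1_KO by the bound of their interval rested on a few nuclei. Dclk1, Cpxm1, Cxcl12, Ebf1 and Lox, genes of connective tissue cells, had UMIs in 4 to 6 Sun1_KO decorin-high nuclei each. Dclk1, a microtubule-linked kinase gene, had 87.5 CPM in Sun1_KO and 13.4 in Sun1_WT with all nuclei. Without the nuclei with Xist, it had 0 UMIs in Sun1_KO and 1 in Sun1_WT. Lox, a collagen cross-linking enzyme, had 74.3 and 13.8, then 1 and 2 UMIs. Postn, periostin, followed the same course, with 66 and 55 UMIs, and 1 and 2 UMIs without those nuclei. Cxcl9, a chemokine induced by interferon-gamma, had 125 of its 165 Sun1_KO UMIs in 1 nucleus, and Lrmda, a leukocyte-rich gene, 33 of 79. The log2 ratio of Cxcl9 was 1.49 (0.52 to 2.39) without the nuclei with Xist and 3.23 with them, and that of Lrmda 1.42 (-0.35 to 2.93) and 2.99, while Cpxm1 had 2 Sun1_KO and 5 Sun1_WT UMIs left without them, and Cxcl12 1 and 1. Without the nuclei with Xist, 122 of 8035 genes (1.52%) were higher and 299 (3.72%) lower, and in low X-stretch nuclei without Xist 60 of 3207 (1.87%) and 73 (2.28%).

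**Figure D5:**
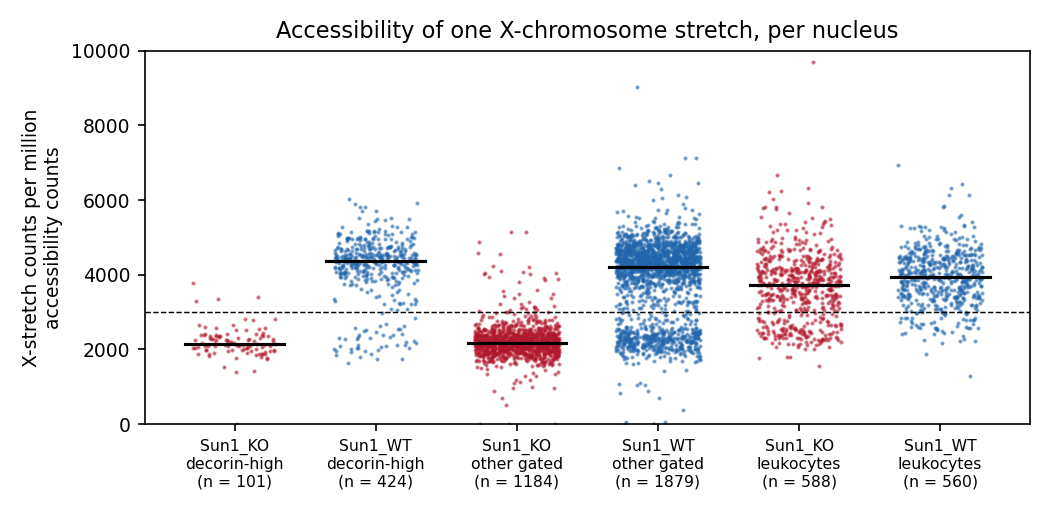
Share of accessibility counts in the chromosome X stretch per nucleus (y, CPM) for decorin-high, other gated and leukocyte nuclei with at least 5000 accessibility counts, Sun1_KO in red and Sun1_WT in blue, with black lines at medians and the 3000 boundary dashed. Sun1_KO tumour nuclei have medians of 2153 and 2169 and Sun1_WT tumour nuclei form groups on both sides of the boundary, of which the lower holds 10.6% of decorin-high and 24.1% of other gated nuclei.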

How the data were processed

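The authors deposited, for each tumour, a table of RNA counts (UMIs per gene and nucleus) and a table of accessibility counts (per peak and nucleus), on the mm10 build; per the submitters' processing notes, the tools were Signac, Seurat, FastQC, Cell Ranger ARC and Cell Ranger, with no versions. Any earlier filter on nuclei was not given in the sources used here. Each library had its own peaks, and those overlapping by at least 1 base were merged into shared regions. UMIs were summed over nuclei and divided by totals without mitochondrial genes. Log2 ratios used 0.5 added counts and exact conditional binomial intervals. Poisson and Clopper-Pearson intervals cover levels and shares. Genes and regions needed 100 counts over both groups (per library, within libraries). A count of 0 was set to 3 counts for a bound. The named genes were the 10 with the largest interval bound nearest 1 in each direction and comparison, up to 2 per direction from each list, Sun1, and all small leucine-rich proteoglycans measured; regions were the top 5 in each direction, of which some are given. Members and lists were chosen with earlier results of these data known. Leukocyte nuclei had at least 3 Ptprc UMIs. X-stretch shares needed 5000 accessibility counts, and both the Xist and X-stretch splits were chosen after seeing the data. No table held columns of other samples. The steps were checked on simulated Poisson counts, the model the intervals assume. The check therefore does not cover UMIs gathered in single nuclei. Python 3.11.15, NumPy 2.4.6, SciPy 1.17.1, pandas 2.3.3, matplotlib 3.10.9, R 4.3.3 and edgeR 4.0.16 (TMM factors only) were used. Alternatives covered the score, gate, scaling, minimum counts, added counts and overlap.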

Additional observations from a re-analysis of the deposited data

Results flagged for a closer look

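Igfbp3, a carrier of insulin-like growth factors, differed in opposite directions between the genotypes in the 2 sets of nuclei, which was not tested. Its log2 ratio of Sun1_KO to Sun1_WT was 2.31 in decorin-high nuclei (83 and 76 UMIs) and -1.80 in the other gated nuclei. In decorin-high nuclei it was read in 5 Sun1_KO and 8 Sun1_WT nuclei, with 64 of the Sun1_KO UMIs in 1 nucleus. Without the nuclei with Xist, 1 Sun1_KO and 1 Sun1_WT UMI were left in decorin-high nuclei, and the log2 ratio in the other nuclei was 1.69.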

How the results depend on the processing

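Of results for comparisons, 110 settings kept direction and size, 41 moved and 1 turned. For named genes these were 4086, 1109 and 25. Minimum counts of 1, 20 and 500 UMIs per gene cannot change the ratio of a gene. Each of them therefore gave 261 kept outcomes that were fixed in advance and say nothing of stability. The ratio of decorin-high shares was 0.277 for the top 10%, 0.614 for the top 20%, 0.310 with Dcn alone, 0.601 with Hmga2 of at least 6, 0.877 in low X-stretch nuclei without Xist, and 1.004 for the top 15% within each library, which fixes it by construction. Genes higher and lower in Sun1_KO numbered 81 and 428 with TMM, 83 and 426 with median-ratio scaling, 234 and 437 with Dcn alone, 602 and 634 at 20 UMIs, 2778 and 1259 at 1 UMI, 16 and 89 at 500 UMIs, and 60 and 73 in low X-stretch nuclei without Xist; 230 were higher within libraries, and 156 lower with 5 added counts. Genes higher in decorin-high than other nuclei numbered 752, 3111 and 180 at 20, 1 and 500 UMIs and 210 in low X-stretch nuclei, and 379 were lower with 5 added counts. Regions higher and lower in Sun1_KO numbered 41 and 250 binarised, 7646 and 6943 at 20 counts, 14 and 119 at 500 counts, and 324 and 153 in low X-stretch nuclei; 1134 were lower within libraries. Regions more and less open in decorin-high nuclei numbered 1836 and 5858 binarised and 861 and 4112 at 500 counts; 1525 were more open in low X-stretch nuclei, and 5972 less open with Dcn alone. Minimum counts change how many features are compared; other causes were not tested.

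Of named genes, the top 10% turned Cxcl14 over other nuclei to -0.43 (Sun1_KO) and -0.87 (Sun1_WT), Ebf1 to -0.092 (Sun1_KO over Sun1_WT) and -0.76 (Sun1_KO over other nuclei) and Timp3 to -0.62 (Sun1_KO over Sun1_WT). The top 15% within libraries turned Cxcl14 to -1.03, and Dcn alone Ikzf2 to -0.16, both in Sun1_WT over other nuclei. Without the nuclei with Xist, Sun1_KO over Sun1_WT was -0.46 for Bgn, -0.077 for Ebf1 and -0.45 for Timp3, and decorin-high over other nuclei in Sun1_KO and Sun1_WT was -1.08 and -0.20 for Dclk1, -1.74 and -0.38 for Ebf1, and -0.90 and -0.42 for Timp3. In low X-stretch nuclei without Xist, Sun1_KO over Sun1_WT was 0.063 for Prelp and -0.997 for Dclk1, Cxcl12 and Ebf1, with at most 1 UMI a library, and decorin-high over other nuclei was -0.18 for Dclk1 and -1.27 for Ebf1 in Sun1_KO, -1.08 for Lrmda in Sun1_WT, and -0.68 and -1.84 for Timp3. No paired analysis was possible because each genotype had 1 library per assay and the labels carry no replicate numbers. With 1130862 UMIs in Sun1_KO decorin-high nuclei, against 5148420 in Sun1_WT, genes with few UMIs cannot be compared at this depth.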
